A study of Rattus norvegicus with 16 samples.

Results

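The cytoplasmic ribosomal protein genes were examined in whole blood of 16 saline control rats. Members were the gene entries present in all 16 count files whose symbol names a protein of the large subunit (Rpl, Rplp) or of the small subunit (Rps, Rpsa), which gave 99 of 18031 entries. They carried 75 symbols, of which 44 belonged to the large subunit (56 entries) and 31 to the small subunit (43 entries). The animals were adult male Sprague-Dawley rats aged 85 to 90 days that received 4 injections of saline, and blood was taken by cardiac puncture 3 h later and frozen at once. Globin mRNA was depleted, polyadenylated RNA was selected, and each library came from 1 rat. There was 1 group, so the comparisons are between libraries and not between treatments. The study states that its control rats came from repeats of the experiment, killed on different dates. The labels do not give the date of each library. The file names carried 6 codes, called run codes here, and their meaning is not stated. Total estimated counts ran from 21466776 to 31189549 per library.

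Each cytoplasmic ribosome is built from a large and a small subunit, and most of its proteins are present once per particle. The mRNAs of these proteins usually begin with a C followed by a run of pyrimidines, the 5′ terminal oligopyrimidine (TOP) motif, through which their translation is regulated together. In blood, resting lymphocytes hold abundant ribosomal protein mRNA, neutrophils hold less, and young red cells (reticulocytes) keep part of their ribosomes and mRNA while they finish making haemoglobin.

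The sequence around the transcription start is shown for symbols with at least 1 entry called on a blood cell level below (adjusted p under 0.05). Each also had a promoter in the RefSeq table (build GRCr8, matched by symbol). Each line gives the 15 bases before and the 15 bases from the annotated start, 5′ to 3′ on the gene's strand, and the capitals mark the longest run of a C followed by at least 4 bases that are C or T.
Rps2 (chr10:14251833-14251862, plus strand): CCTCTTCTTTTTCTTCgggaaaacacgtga
Rpl41 (chr7:1563483-1563512, minus strand): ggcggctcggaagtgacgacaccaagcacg
Rplp1 (chr8:71290858-71290887, minus strand): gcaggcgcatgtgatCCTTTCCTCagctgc
Rpl21 (chr12:13386139-13386168, minus strand): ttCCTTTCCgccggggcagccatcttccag
Rpl12 (chr3:36661925-36661954, plus strand): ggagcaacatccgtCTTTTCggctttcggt
Rpl14 (chr8:129163605-129163634, plus strand): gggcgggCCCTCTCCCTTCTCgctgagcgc
Rpl6 (chr12:41011676-41011705, minus strand): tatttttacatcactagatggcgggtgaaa

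The table held 61 promoters for 60 of the 75 symbols. A run of this kind lay within 15 bases of the start in 49 of the 61 (80.3%), against 34.8% of all 33469 promoters in the table. A C exactly at the annotated start with 4 pyrimidines after it occurred in 23 of the 61 (37.7%), against 2.63% of all promoters. The motif CCGGAAG, searched on both strands of the 300 bases, was held by 20 of the 61 (32.8%) and by 8.75% of all promoters. These matches describe the letters only. In the windows shown, Rplp1 had its tract at the first transcribed base, Rpl12 began 1 base before it, and Rpl41 and Rpl6 held no such run. The Rpl6 window holds an ATG just after the annotated start, and other possible starts of these genes were not searched.

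Ribosomal protein entries took 6.58% ± 1.31 (SD, n = 16) of all counts. The share was lowest in control 1 (5.10%), had a median of 6.22%, and was highest in control 3 (9.63%), and control 12 was the only other library above 9% (9.29%). The large subunit held 3.84% ± 0.743 (SD, n = 16) and the small subunit 2.74% ± 0.567 (SD, n = 16) of all counts. The depletion kit left 2.96% to 15.5% of counts in globin entries, and with these out of the total the ribosomal share was 7.27% ± 1.40 (SD, n = 16).

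**Figure D1:**
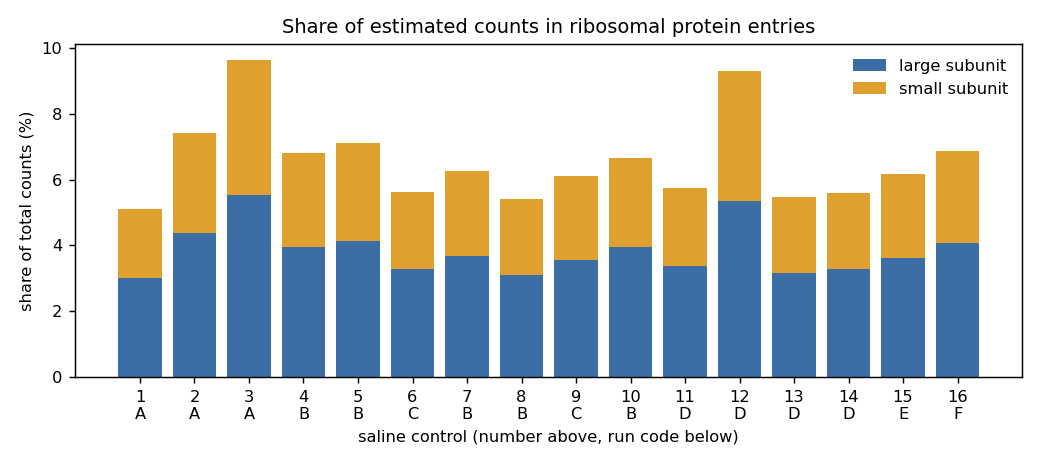
Share of total estimated counts in ribosomal protein entries (y axis, %) for each of the 16 saline controls (x axis, with the run code below the number), stacked as large subunit (blue) and small subunit (yellow). Controls 3 and 12 stand highest at 9.63% and 9.29% and control 1 lowest at 5.10%, with the large subunit the greater part in every library.

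The balance of the subunits moved far less than the share. The ratio of large to small subunit counts was 1.40 ± 0.0359 (SD, n = 16), a coefficient of variation (CV) of 2.56%, against a CV of 19.9% for the share itself. The ratio was 1.35 in control 3, 1.41 at the median and 1.46 in control 10. Levels were also formed as the mean over symbols of log2(normalized count + 1), with counts divided by DESeq2 size factors. The large and small subunit levels had r = 0.998 over the 16 libraries (Spearman 0.985). This is a description over libraries that share their scaling, so no p is given. The ratio had r = 0.05 with the lymphoid level, -0.17 with the myeloid level and 0.18 with the erythroid level.

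The 75 symbols rose and fell together. The first principal component of their log2 values held 83.6% of the variance and the second 7.68%. Control 1 was the lowest library for 64 of the 75 symbols (37 large, 27 small) and control 13 for 8. Control 10 was the highest for 28, control 5 for 20, control 3 for 17 and control 12 for 5. For 50 symbols the correlation with the mean of the other 74 exceeded 0.9. Rps9, a small subunit protein near the mRNA entry, followed the others least (r = 0.56), and Rpl35a, a large subunit protein mutated in some inherited anaemias, followed them most (r = 0.99).

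The spread of single symbols was moderate. The CV over libraries had a median of 26.5% over the 75 symbols, 26.8% for the large and 25.9% for the small subunit, against 29.7% for the 2449 entries of any kind with a mean of at least 1000 normalized counts. The highest library exceeded the lowest 2.37-fold at the median, and more than 3-fold for 11 symbols. In the large subunit, Rpl6, Rpl8 and Rpl9 varied least (CV 16.9%, 18.1% and 19.8%), and Rpl41, Rpl37 and Rpl38 most (40.1%, 44.9% and 55.4%). In the small subunit, Rps9, Rps3 and Rps27 varied least (18.4%, 19.0% and 21.8%), and Rps2, Rps20 and Rps29 most (38.6%, 40.0% and 40.9%). Rpl38 ran from 15879 normalized counts in control 9 through a median of 26616 to 72418 in control 2, a 4.56-fold range.

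Normalized counts were not divided by transcript length, so they are not compared between genes as amounts of mRNA. On this scale the largest counts in the large subunit belonged to Rpl41, which encodes the smallest ribosomal protein, and to the stalk proteins Rplp0 and Rplp1, and the smallest to Rpl22, Rpl36 and Rpl36a. In the small subunit the largest belonged to Rps29, Rps12 and Rps2 and the smallest to Rps28, Rps21 and Rps26. Rpl22, whose protein is needed for the development of alpha-beta T cells, had 1610 in control 1, 2459 at the median and 3789 in control 5. Rpl41 had 50253 in control 1, 66838 at the median and 168302 in control 10.

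Levels of blood cell genes were formed in the same way from lists of lymphoid genes (25 of 26 found), myeloid genes (27 of 27) and erythroid genes (22 of 25). Their SDs over libraries were 0.288, 0.869 and 0.550 log2 units. The lymphoid and myeloid levels had r = -0.86 with each other, so results on one are not independent of the other. Several libraries also stood apart in markers of other tissues. The summed thymocyte genes were 9149 in control 12 and at most 2321 elsewhere, hepatocyte genes 550853 in control 2 and 131795 in control 8, and cardiac genes 543 in control 10 and at most 91.3 elsewhere. The summed adipocyte genes were 7773 in control 12 and at most 2962 elsewhere. All 12 platelet genes had slopes above 0 on the myeloid level and below 0 on the lymphoid level, with 0 and 1 called. Their part in the results was not tested, and values without these libraries are given below.

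The ribosomal share and the ribosomal level gave different pictures. As a share of counts, the members had r = 0.66 with the lymphoid level (Spearman 0.71), -0.55 with the myeloid level (Spearman -0.56) and -0.11 with the erythroid level (Spearman 0). Centred within run code, the first 2 were 0.64 and -0.54. As a size-factor-scaled level, they had r = 0.15, -0.27 and 0.47. Without controls 5 and 10, the libraries farthest from the median erythroid level, the last fell to 0.15, and centred within run code it was 0.05. Size factors ran from 0.642 in control 10 to 1.46 in control 3 and had r = -0.71 with the erythroid level, so the choice of scale moves these relations. These correlations are descriptions of 16 libraries.

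**Figure D2:**
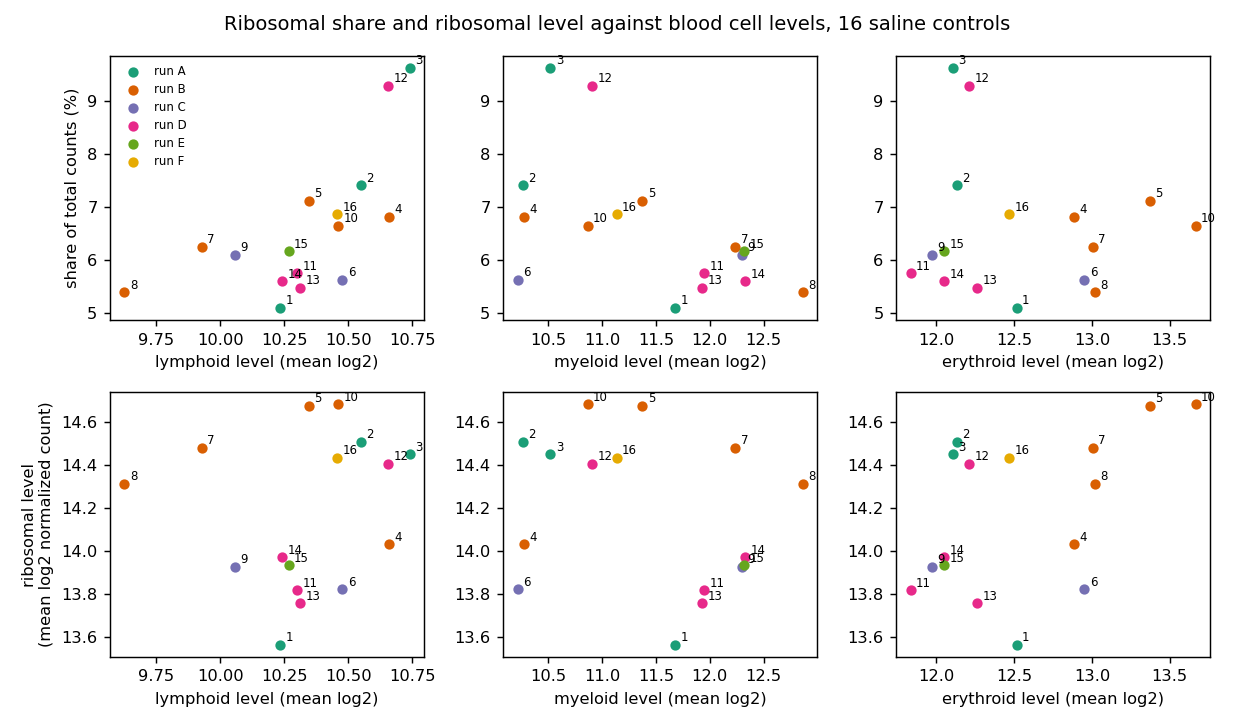
Ribosomal share of counts (upper row, %) and mean log2 level of the 75 symbols (lower row) against the lymphoid, myeloid and erythroid levels (x axes, mean log2 normalized count); each point is 1 of 16 saline controls, numbered and coloured by run code. Controls 3 and 12 are highest in share with high lymphoid levels, and controls 5 and 10 are highest in ribosomal level with the highest erythroid levels.

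The slope of every gene on each level was then tested with edgeR's quasi-likelihood test, and is given as log2 change per 1 SD of the level, ± its SE. P-values were adjusted by Benjamini-Hochberg over the 12134 entries with at least 10 counts in at least 8 libraries, of which 92 were members (52 large, 40 small). The 7 members under this limit had at most 110 normalized counts on average. Because the members rose and fell together and some share a symbol, the counts of members below are not counts of separate observations.

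With the lymphoid level, 1 of 92 members was called higher and 0 lower, where 15.7% of all entries tested were called higher and 13.8% lower. At an unadjusted p under 0.05, edgeR gave 4 members higher and 0 lower, where 23.3% and 17.8% of all entries were. DESeq2 called 1 member higher (adjusted p under 0.05), where it called 18.2% of all entries higher and 15.6% lower. The member called was Rpl14, a large subunit protein (slope 0.23 ± 0.07, adjusted p = 0.0249). Its normalized count was 8255 in control 1, 10097 at the median and 16588 in control 3, and the next highest libraries were controls 2 and 12. The median slope of the members was 0.06, against 0.03 for all entries, and 69 of 92 members had a slope above 0, against 53.8% of all entries. Leaving out control 3, 8 or 12 ended the call, where 13.6%, 5.85% and 15.2% of all entries were called higher. The members with the next smallest p were Rpl6 entry ENSRNOG00000031889 (slope 0.18 ± 0.07, adjusted p = 0.0715) and Rpl18 (0.15 ± 0.07, adjusted p = 0.102).

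With the myeloid level, 2 of 92 members were called lower and 0 higher, where 11.7% of all entries were called lower and 15.7% higher. Both belonged to the large subunit, Rpl14 (slope -0.22 ± 0.08, adjusted p = 0.0339) and Rpl6 entry ENSRNOG00000031889 (-0.22 ± 0.07, adjusted p = 0.0235). At an unadjusted p under 0.05, 5 members were lower (20% of all entries) and 0 higher (19.4% of all entries). Slopes lay above 0 for 2 of 92 members and for 42.6% of all entries, with medians of -0.10 and -0.04. On both levels a smaller share of the members than of all entries was called with TMM. On the lymphoid level this turned round when counts were scaled by total counts, with 38 members called higher (41.3%) against 22.1% of all entries. That scaling moved the median slope of all entries to 0.16 and left the members' median 0.05 above it, against 0.04 with TMM. Without control 2, 3 or 8, 0 members were called on the myeloid level, where 9.74%, 9.06% and 5.19% of all entries were called lower. Without control 6 there were 5 members called lower (5.43%), against 11.9% of all entries.

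With the erythroid level, 7 of 92 members were called higher and 0 lower, where 6.77% of all entries were called higher and 0.0989% lower. The called share of the members, 7.61%, was close to that background in this fit. It was 16.3% against 7.87% of all entries with DESeq2 and 12.0% against 7.33% with DESeq2 size factors in edgeR. With TMM without globin entries it was 6.52% against 6.75%, and with all 3 levels in one fit 3.26% against 5.08%. Without controls 2, 8, 10 and 12 it was 0% against 2.52%. The median slope was 0.14 for the members and -0.04 for all entries, and 81 of 92 members had a slope above 0 against 35.1% of all entries. At an unadjusted p under 0.05, 30 members were higher and 0 lower, where 10.1% of all entries were higher and 3.07% lower.

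The small subunit gave 3 of these 7 entries. Rps2, a protein at the mRNA entry channel, had a slope of 0.37 ± 0.08 (adjusted p = 0.00391). Its normalized count was 20916 in control 1, 32260 at the median and 70629 in control 5, with control 10 next at 65992. Rps29, a small zinc-binding protein of the head, was called in 2 of its 3 entries, ENSRNOG00000004196 (0.38 ± 0.09, adjusted p = 0.0096) and the low-count ENSRNOG00000029443 (0.46 ± 0.11, adjusted p = 0.0117). Summed over its entries, Rps29 had 37838 in control 1, 53005 at the median and 121094 in control 10.

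The large subunit gave the other 4. Rpl12, which lies at the base of the stalk, was called in entry ENSRNOG00000016220 (0.46 ± 0.10, adjusted p = 0.00478). This entry held 41.3% of the symbol, and between 25.3% and 66.8% in single libraries, so its slope is not that of the whole symbol. Rpl41 had 0.36 ± 0.08 (adjusted p = 0.00691), Rpl21 had 0.31 ± 0.09 (adjusted p = 0.0354) and the stalk protein Rplp1 had 0.30 ± 0.09 (adjusted p = 0.0482). When counts were summed per symbol before the fit, 6 of 75 symbols were called higher, the same names as above. That was 8% of them, against 6.80% of all entries in that fit. Rpl12 then had a slope of 0.30 ± 0.08 (adjusted p = 0.0267). The medians over entries were 0.16 for the large and 0.12 for the small subunit.

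**Figure D3:**
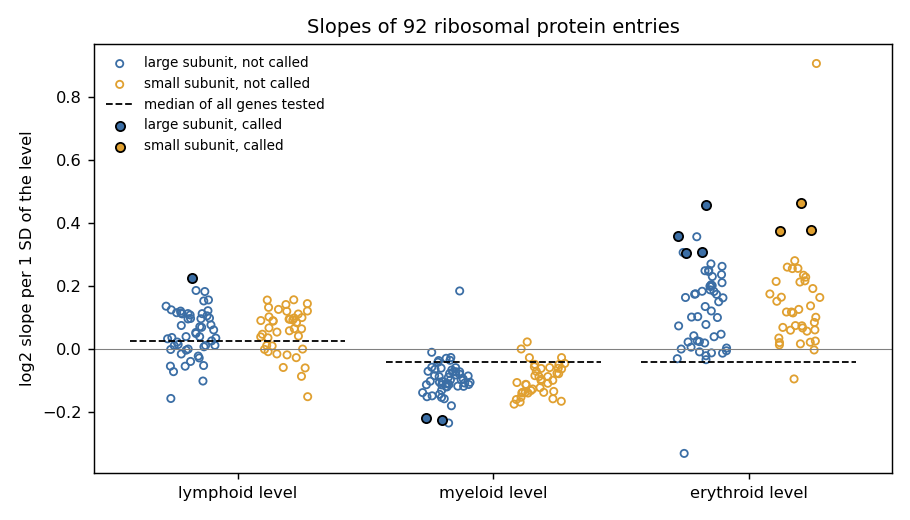
Slopes of the 92 tested ribosomal protein entries on the lymphoid, myeloid and erythroid levels (y axis, log2 change per 1 SD of the level), large subunit in blue and small subunit in yellow, filled where adjusted p was under 0.05, with the median of all 12134 entries as a dashed line. The 7 filled points on the erythroid level, 1 on the lymphoid and 2 on the myeloid level are the members called.

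The erythroid level moved with the run code. Controls 4, 5, 7, 8 and 10 shared run code B and had erythroid levels of 12.88 to 13.67, while the other libraries lay between 11.83 and 12.95, so that the groups overlapped only at control 6. With the run code as a term, 0 members were called on any of the 3 levels. That fit called 25.5% of all entries on the lymphoid and 24.5% on the myeloid level but 0% on the erythroid level, where the count of members therefore says nothing about them. The members' median slope on the erythroid level was then 0.04, which was 0.03 above that of all entries. Without control 10 edgeR called 1 member (1.09%, against 3.74% of all entries), and without controls 5 and 10 it called 0, where only 1.16% of all entries were called and the members' median was 0.06 above that of all entries. Without control 2 it called 14 members (15.2%, against 7.04% of all entries), and without control 6 it called 20 (21.7%, against 7.43%). Scaling by total counts moved the median slope of all entries on the erythroid level from -0.04 to -0.25 and turned the calls to 0 higher and 2 lower (1 entry each of Rpl36a and Rpl6, named after their values were seen), but the members' median stayed 0.16 above that of all entries, against 0.18 with TMM.

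**Figure D4:**
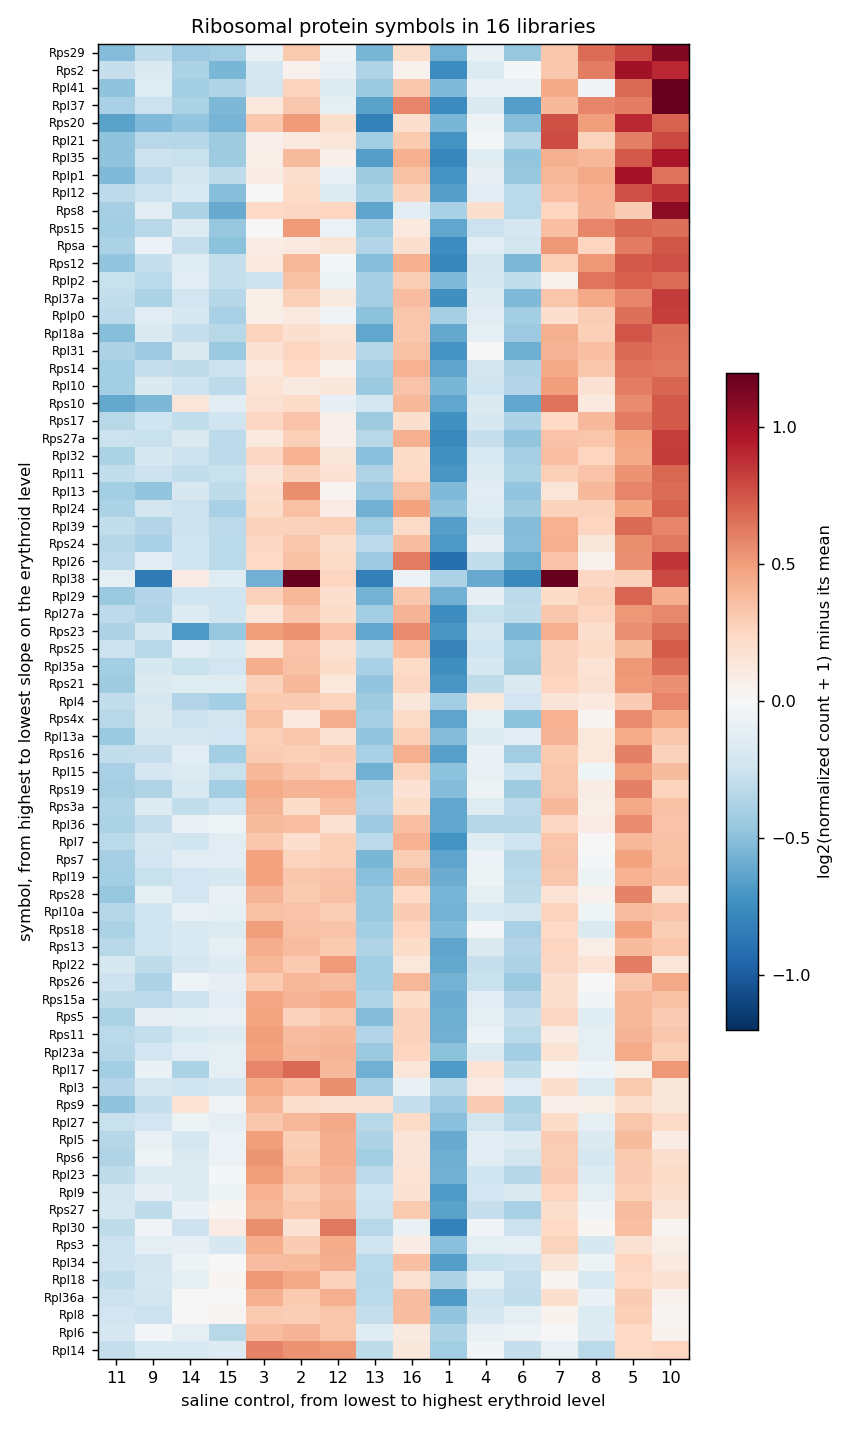
Each of the 75 symbols (rows, ordered from the highest to the lowest slope on the erythroid level) in the 16 libraries (columns, from the lowest to the highest erythroid level), coloured by log2(normalized count + 1) minus the symbol's mean. The upper rows, such as Rps29, Rps2 and Rpl41, are highest in controls 5 and 10. Among the lowest rows, Rpl14, Rpl6 and Rpl36a are highest in controls 2 or 3, but Rpl8 is highest in control 16. Control 1 is low in nearly every row.

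Within the common movement, members differed in which libraries they were highest. The second component ran from Rps2, Rps29, Rpl37, Rpl41 and Rplp2 at one end to Rpl14, Rpl30, Rpl5, Rps6 and Rpl36a at the other, and its scores were highest in controls 8 (1.61) and 10 (1.59) and lowest in controls 3 (-1.99) and 12 (-1.74). Both ends held proteins of both subunits. The share of each symbol in the ribosomal counts shows this without any scaling between libraries. Rps2 took 1.59% of ribosomal counts in control 3 and 2.90% in control 5, and Rpl41 took 3.21% in control 3 and 6.46% in control 10. Rpl14 ran the other way, from 0.459% in control 8 to 0.860% in control 3, as did Rps6, the phosphorylated protein of the small subunit, from 1.13% in control 10 to 1.91% in control 3. Rpl11, which forms the 5S particle with Rpl5, kept the narrowest range of the members named here, 1.19% to 1.38%.

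Groups of members by position gave the following slopes on the erythroid level, where the median of all entries was -0.04 and 6.77% of them were called higher. The 4 stalk entries (Rplp0, Rplp1, Rplp2) had a median of 0.25, with 1 called, the 20 body entries of the small subunit 0.11 with 1 called, and the 20 head entries 0.14 with 2 called. The 9 entries around the exit tunnel had 0.17 and 0 called. In the 5S particle, Rpl11 had 0.20 ± 0.08 (adjusted p = 0.224) and Rpl5 0.02 ± 0.09 (adjusted p = 0.949). Entries of genes mutated in inherited anaemia, Rps19 and Rpl5 among them, had a median of 0.16 over 12 entries with 0 called. On the lymphoid level the stalk entries had a median of -0.06, while the body entries had 0.07.

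Genes that work with the ribosome were read from the same fits. Among 21 ribosome assembly genes, 7 rose and 1 fell with the lymphoid level, and 6 fell with the myeloid level. Over all entries 15.7% rose and 13.8% fell with the lymphoid level, and 11.7% fell with the myeloid level. Those that rose included Tsr1, a small subunit maturation factor (0.31 ± 0.05), the RNA polymerase I subunits Polr1a (0.29 ± 0.07) and Polr1b (0.27 ± 0.05), and the polymerase I initiation factor Rrn3 (0.21 ± 0.06). Sbds, which releases Eif6 from the large subunit, fell (-0.16 ± 0.05). No assembly gene was called on the erythroid level. Of 18 translation factors and other TOP mRNAs, 2 rose with the erythroid level (6.77% of all entries did), Tpt1 (0.43 ± 0.10) and the elongation factor subunit Eef1d (0.26 ± 0.07). In the same list 2 rose with the lymphoid level, the initiation factor subunit Eif3f (0.16 ± 0.05) and the RNA-binding protein Hnrnpa1 (0.24 ± 0.07). With the myeloid level 2 fell, the initiation factor subunit Eif3h (-0.25 ± 0.07) and Hnrnpa1 (-0.24 ± 0.07).

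Of the 75 symbols, 22 had more than 1 entry, and estimated counts can divide reads among near-identical copies, so values of single entries are uncertain. The 2 entries of Rps19, the gene most often mutated in Diamond-Blackfan anaemia, were equal in 16 of 16 libraries within 0.011 counts. They were counted as 1 symbol, but both stood among the 92 entries tested, the 20 head entries and the 12 anaemia entries. The 2 entries of Rps20 divided their counts by run code. Entry ENSRNOG00000008555 held between 42.2% and 62.7% of the symbol in the 8 libraries of run codes A and B and between 0.0193% and 14.6% in the other 8. Entry ENSRNOG00000029627 held 4108 counts in control 1 and 18148 in control 12. Rpl12 entry ENSRNOG00000028993 was listed at 0 in control 6 alone. Rps6 was divided 71.6% to 28.4%, Rpl36a 50.7% to 49.3%, Rps9 77.5% to 22.5%, and Rpl6 75.3% to 24.7%, with the called Rpl6 entry the smaller.

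**Figure D5:**
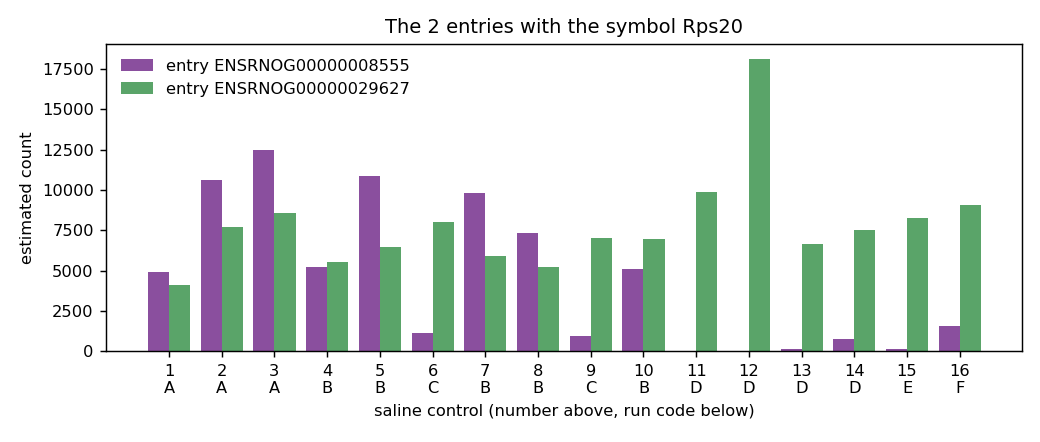
Estimated counts (y axis) of the 2 entries with the symbol Rps20 in each of the 16 saline controls (x axis, with the run code below the number). The purple entry reaches 12510 in control 3 of run code A and falls to 1.90 and 3.69 in controls 11 and 12 of run code D, while the green entry is at 4108 or more in every library.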

How the data were processed

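The authors aligned paired reads to the rat Ensembl transcriptome (rn5) with Bowtie 0.12.9 and deposited estimated counts per gene made with RSEM 1.2.0 (base calling with CASAVA 1.8.2). Here the deposited estimated counts were rounded to whole numbers for edgeR 4.0.16 (TMM, quasi-likelihood) and DESeq2 1.42.0 (R 4.3.3). Entries needed at least 10 counts in at least 8 libraries. Levels are means of log2(normalized count + 1). Samples were grouped by their labels, and run codes (6) were read from the files' names; what a code stands for is not given in the sources used here. No 2 libraries agreed within sampling noise (lowest chi-square per degree of freedom 40.2). Members named were those called on each level, or else the 3 with the smallest p, those with extreme counts or CV in each subunit, and a set list of well-known members. The members and gene lists were chosen with earlier results of these data known. The slope test was tried on simulated counts in which 200 entries had known slopes. It recovered 9% (lymphoid), 4.8% (myeloid) and 6.1% (erythroid) of slopes of 0.25, and 63.6%, 61.2% and 72.7% of slopes of 0.5. Member slopes ran from -0.158 to 0.226 on the lymphoid level and from -0.235 to 0.184 on the myeloid level, a size it seldom recovered. On the erythroid level they ran from -0.332 to 0.905. The simulated slopes were put on entries drawn from all those tested, so recovery for the members themselves was not measured. The data held more called entries than the simulation changed, so recovery in the data can differ. Promoters came from RefSeq, matched by symbol. Counting error only is covered by the depth given.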

Additional observations from a re-analysis of the deposited data

Results flagged for a closer look

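Of 125 entries whose symbol met the naming rule in at least 1 file, 26 were listed in some files only and entered no comparison. In 3 of them the highest estimated count exceeded 3, the limit that a count of 0 allows: 20.6 for Rpl32 ENSRNOG00000032605, 5.79 for Rps27a ENSRNOG00000034246 and 4.45 for Rps26 ENSRNOG00000029512.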

How the results depend on the processing

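The members' share of counts and the large to small subunit ratio moved by less than their spread under the alternatives run. Correlations with the 3 levels stayed inside their Fisher intervals, but these are too wide to show stability. For the ribosomal level on the erythroid level the interval ran from -0.03 to 0.78, and r moved from 0.47 to 0.05 when centred within run code. Without the 2 libraries farthest from each level's median, r of the subunit ratio changed sign on all 3 levels (-0.12 lymphoid, 0.04 myeloid, -0.02 erythroid). For the subunit levels the Spearman value was 0.985. Counts of members called moved more, and the cause was not tested. On the lymphoid level (1 called), total count scaling gave 38 (41.3%, against 26.5% of all entries). TMM without globin entries gave 2 (31.3% of all entries called) and the genes the study chose 2 (26.8%). The run code term (25.5%), all 3 levels in one fit and leaving out controls 2, 8, 10 and 12 (9.89%) gave 0 each. With all 3 levels in one fit, 0.0165% of all entries were called on the lymphoid level and 2.27% on the myeloid level, so those counts of 0 say little about the members. On the myeloid level (2 called), total count scaling (9.18% of all entries called), no filter (17.7%) and the genes the study chose (15.0%) gave 1 each. Symbol sums (27.4%) and leaving out controls 5 and 10 (25.2%) also gave 1 each. TMM without globin entries (28.4%) and DESeq2 (31.4%) gave 4 each. The run code term (24.5%), all 3 levels in one fit and leaving out controls 2, 8, 10 and 12 (14.3%) gave 0 each. Only 2.82% of all entries were called lower with the genes the study chose, and 2.77% without controls 2, 8, 10 and 12. On the erythroid level (7 called), DESeq2 size factors gave 11 (7.33% of all entries called) and DESeq2 15 (7.87%). TMM without globin entries gave 6 (6.75%) and all 3 levels in one fit 3 (5.08%). No filter gave 6 higher (4.94%) and 1 lower (0.112%), the low-count Rps7 entry ENSRNOG00000027694. Total count scaling gave 2 in the opposite direction (22.8% of all entries were called lower). The run code term (0%), leaving out controls 5 and 10 (1.16%), and leaving out controls 2, 8, 10 and 12 (2.52%) gave 0 each. Leaving out each control in turn gave 0 to 2 (lymphoid), 0 to 5 (myeloid) and 1 to 20 (erythroid). The share of all entries called in each such fit follows in brackets. The lymphoid count was 0 without control 3 (26.5%), 8 (15.5%) or 12 (28.8%) and 2 without control 9 (26.9%). The myeloid count was 0 without control 2 (25.2%), 3 (23.9%) or 8 (18.2%). It was 1 without control 9 (24.8%) and 5 without control 6 (27.2%). The erythroid count was 1 without control 10 (3.74%), 14 without control 2 (7.04%) and 20 without control 6 (7.43%). None of the called entries changed sign under these alternatives. Leaving out controls other than 2 and 12, and controls 5 and 10 together, was chosen after seeing the data.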
